A study of Mus musculus with 13 samples.

Results

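Tip and stalk samples of mouse retinal endothelium were compared across all genes measured on 10 arrays, 6 labelled tip and 4 labelled stalk, out of the 13 arrays of the series. The members were taken by label alone: the tip and stalk samples form the comparison, and 3 arrays of nonvascular retina stayed out of it and out of its error. On every array the sample was labelled with Cy5 and hybridised against a common commercial RNA in Cy3, Universal Mouse Reference RNA from Stratagene, with no dye swap. Strain, genotype, age, treatment, the way cells were collected and the animals behind each sample are not given in the sources used here. P-values therefore measure only the spread between these samples, part of which may be technical.

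A new vessel sprout is led by a tip cell, which sends out filopodia, senses vascular endothelial growth factor and digests and rebuilds the matrix in front of it. Stalk cells follow behind, form the lumen and, as the vessel settles, take up contacts with pericytes and build the tight junctions and carriers that close the blood-retina barrier. Notch signalling between neighbours is known to set the balance: tip cells present the ligand Dll4, and Notch in the receiving cells restrains their sprouting.

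Each value below is the log2 ratio of sample over reference, so a level can be compared between samples but not between genes. Stalk levels are listed for replicates 1 to 4 in order, and tip levels as the lowest, the median and the highest of 6. Differences are tip minus stalk on the log2 scale with the standard error from limma, and a gene was called at an adjusted p under 0.05 (Benjamini-Hochberg over 41174 probes). A gene was read from its probe of highest mean intensity.

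The arrays differed in ways other than their labels. Median red signal over local background was 98.1 to 141 on the stalk arrays, 187 to 292 on tip replicates 1 to 4, and 114 and 105 on tip replicates 5 and 6. Scans of stalk came before those of tip, and tip replicate 5 had a day of its own, so the order of scanning and the groups cannot be told apart. Of 10 endothelial markers, 8 stood above every nonvascular array in both groups, while Pecam1 and Tek did not. Of 10 pericyte and smooth muscle markers 9 did the same, and the mean level over that list was 1.58 to 1.79 on stalk arrays, 0.826 to 1.12 on tip arrays and −0.825 to −0.658 on nonvascular arrays. The mean over 4 Mueller glia markers was 1.89 to 2.25 in tip and 2.22 to 2.49 in stalk, beside 1.44 to 2.42 in nonvascular retina, and the mean over 5 photoreceptor markers 0.043 to 0.083, 0.066 to 0.109 and 0.137 to 0.442.

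Tip replicate 6 lay nearest to the stalk arrays on the first principal component and over the called genes. Across probes, which are not independent replicates, its log2 ratios correlated at 0.935 to 0.953 with stalk arrays and at 0.944 to 0.965 with the other tip arrays. Tip replicate 4 correlated with stalk arrays nearly as highly, at 0.931 to 0.953. On the first principal component, which held 33.1% of the variance, tip replicate 6 was at −1.61, between the stalk arrays (−34.8 to −12.6) and the other tip arrays (10.3 to 27.8). The called genes give a scale of their own, on which 0 is the stalk mean and 1 the tip mean of each gene. Both means were taken without the array being placed. The median position over 564 called genes was 0.847 for tip replicate 6, 0.947 to 1.11 for the other tip arrays and −0.149 to 0.0836 for the stalk arrays. Those positions describe genes that the same arrays selected, and are no test.

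**Figure D1:**
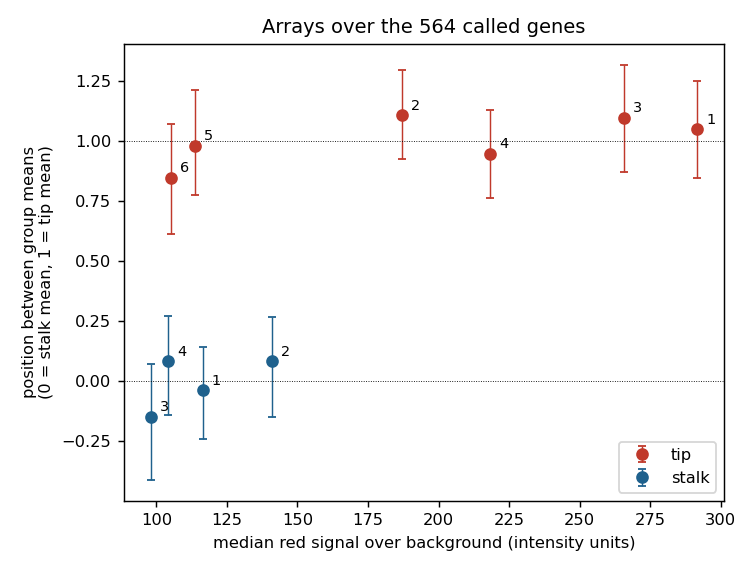
Position of each array between the stalk mean (0) and the tip mean (1), both taken without that array, over the 564 called genes. Points are medians and bars run from the 25th to the 75th percentile over genes, plotted against each array's median red signal over background. Tip replicate 6 has the lowest median of the tip arrays, 0.847, and stalk replicate 3 the lowest of all, −0.149.

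Tip and stalk samples differed at 904 of 41174 probes. Among them 488 probes were higher in tip, 1.19% of those tested, and 416 were lower, 1.01%. A difference of at least 2-fold was reached by 35 of the higher probes and 96 of the lower ones. Over the 16813 genes with a symbol, 269 were higher in tip (1.6%) and 295 lower (1.75%). At least 2-fold differences were seen for 22 and 69, and the median difference of all genes was 0.01. The groups did not overlap for 255 of the 269 higher genes and 286 of the 295 lower ones, against 6.64% of all genes. The same arrays selected the called genes, so their separation follows largely from the calls and is no test.

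The number of calls depended on single arrays. Without tip replicate 6 it rose to 1212 higher and 604 lower probes (2.94% and 1.47%), and to 3.96% and 2.53% of genes. It fell to 182 and 247 without stalk replicate 1, to 179 and 258 without stalk replicate 3, to 234 and 269 without tip replicate 2, to 312 and 337 without stalk replicate 2 and to 219 and 279 without tip replicate 3. The balance of directions moved with the scaling too, from 54% of calls higher to 19.1% with each array centred on its median (38 higher, 161 lower), 33.8% with the red channel alone (208, 407), 43.2% with the scanner software's own log ratio (238, 313) and 43.4% with the deposited ratio (225, 294). With array brightness as a covariate 70 probes were higher and 137 lower (0.17% and 0.333%), or 0.28% and 0.642% of genes. All 269 and 295 called genes kept their sign when only tip replicates 5 and 6, as dim as the stalk arrays, stood for tip; both arrays had also taken part in the calls. What brightness adds to the differences was not tested further. Counts of 1 to 4 called members of a gene list, given below, were the least steady: 36 of 55 such counts moved by over 1.5 times when 1 array or another was left out.

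**Figure D2:**
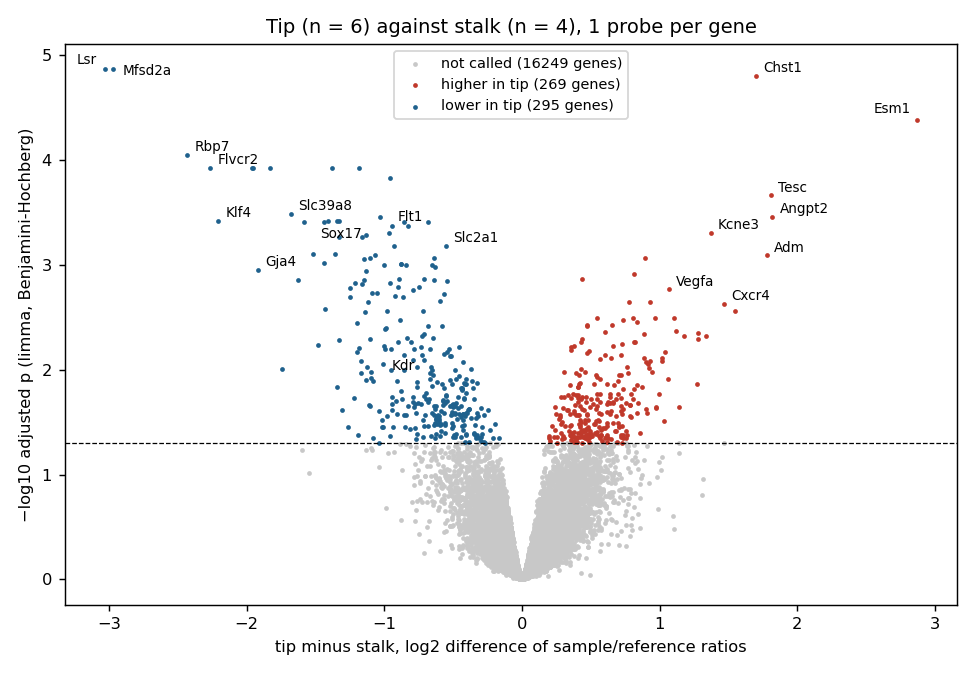
Difference between tip and stalk (x axis, log2) against −log10 of the adjusted p (y axis) for 16813 genes; coloured points are the 269 higher and 295 lower genes. Lsr and Mfsd2a lie farthest to the left at −3.03 and −2.97, and Esm1 farthest to the right at 2.87.

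Esm1, Angpt2, Adm and Apln, all of which encode secreted proteins, were higher in tip. Esm1, which encodes the endothelial proteoglycan endocan, stood at 1.60, 1.65, 1.59 and 2.25 in stalk and at 4.29, 4.63 and 5.10 in tip, a difference of 2.87 ± 0.17 (7.31-fold, adjusted p = 4.13e-05). Stalk replicate 4 was the stalk array nearest to tip, 2.04 below the lowest tip array. Angpt2, a ligand of the receptor Tie2 that loosens vessel walls, was at 1.45, 1.44, 1.93 and 2.13 in stalk and 3.25, 3.61 and 3.74 in tip (1.82 ± 0.15, adjusted p = 0.000348). Its groups were far apart, as were those of Adm, the vasodilator peptide adrenomedullin, which was at −1.01, −0.29, −0.95 and −0.31 in stalk and 0.76, 1.16 and 1.38 in tip (1.78 ± 0.18, adjusted p = 0.000808). Apln, the peptide apelin, was at 1.33, 0.98, 1.04 and 1.33 in stalk and 1.73, 2.08 and 2.34 in tip (0.89 ± 0.13, adjusted p = 0.00772), with no overlap. A second bright probe of Apln differed by 0.91 (adjusted p = 0.0567) and another, dim one by −0.07 (adjusted p = 0.631).

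The receptors Calcrl and Aplnr and the phosphatase Ptprb were lower in tip. Of 14 genes of apelin, adrenomedullin and endothelin signalling 2 were higher (Adm and Apln) and 2 lower (Calcrl and Aplnr), with a median of −0.142. Of 8 genes listed around the angiopoietins and Tie receptors 1 was higher (Angpt2) and 2 lower (Ptprb and Angptl4). Angptl4, an inhibitor of lipoprotein lipase, is counted again among the hypoxia genes below. Over all genes 1.6% were called higher and 1.75% lower. Calcrl, which receives adrenomedullin with a coreceptor, was at 1.09, 1.40, 1.18 and 1.51 in stalk and −0.22, −0.06 and 0.31 in tip, a fall of 1.33 (SE 0.11, adjusted p = 0.000377). Aplnr, the apelin receptor, was at 1.50, 1.49, 1.78 and 1.57 in stalk and 0.65, 0.75 and 0.91 in tip (−0.83 ± 0.07, adjusted p = 0.000423). All 6 tip arrays were below all 4 stalk arrays in both genes. Each has a second, dimmer probe, which differed by −0.21 (adjusted p = 0.0836) for Calcrl and by −0.15 (adjusted p = 0.274) for Aplnr. Ptprb, a phosphatase that holds Tie2 and VE-cadherin signalling down, fell by 1.52 (SE 0.15, adjusted p = 0.000786), from 5.38, 5.04, 5.29 and 4.95 in stalk to 3.25, 3.57 and 4.05 in tip. The VEGF receptors Flt1, which acts as a decoy, and Kdr, the main signalling receptor, were lower as well. Flt1 was at 2.96, 3.21, 3.07 and 3.24 in stalk and 1.91, 2.20 and 2.34 in tip (−0.94 ± 0.08, adjusted p = 0.000428), and a second probe differed by −0.75 (adjusted p = 0.00474). Flt4, known from lymphatic vessels and also found in sprouts, differed by −0.14 ± 0.04 and was not called (adjusted p = 0.121).

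Both receptors of the chemokine Cxcl12 were higher in tip. Cxcr4, named in the title of the series, was at 0.58, 0.30, −0.33 and 0.71 in stalk and 1.59, 1.82 and 1.95 in tip (1.47 ± 0.17, adjusted p = 0.00236), and the nearest tip and stalk arrays were 0.88 apart. Ackr3, which takes the chemokine up without classical signalling, was at −1.78, −1.62, −1.70 and −1.11 in stalk and −0.60, −0.36 and 0.25 in tip (1.28 ± 0.17, adjusted p = 0.00443). Of the 12 genes of the chemokine list these 2 were called higher and none lower, beside 1.6% and 1.75% of all genes. A second, dim probe of Cxcr4 differed by 0.14 (adjusted p = 0.213).

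Among 33 measured tip cell markers 16 were higher in tip and 1, Kdr, was lower, beside 1.6% and 1.75% of all genes. The median difference of the list was 0.41. The list was written with earlier results of these data known, so its share of calls may be built in and is no test. The higher count was 9 without stalk replicate 1, and the median was 0.369 in the tip arrays as dim as stalk. Beyond the factors above it held Chst1, a keratan sulfate sulfotransferase, which was at −1.39, −1.46, −1.60 and −1.34 in stalk and 0.06, 0.25 and 0.43 in tip (1.70 ± 0.09, adjusted p = 1.56e-05). Tesc, the calcium-binding protein tescalcin, was at −0.93, −0.75, −1.07 and −0.68 in stalk and 0.46, 0.98 and 1.28 in tip (1.81 ± 0.14, adjusted p = 0.000217). Neither gene overlapped between groups. Trp53i11, a p53-induced gene, was at 0.32, 0.64, 0.15 and 0.25 in stalk and 1.26, 1.99 and 2.26 in tip (1.55 ± 0.19, adjusted p = 0.00274), with tip replicate 6 the lowest. Kcne3, an accessory subunit of potassium channels, was at 1.36, 1.98, 1.60 and 1.93 in stalk and 2.91, 3.09 and 3.33 in tip (1.37 ± 0.13, adjusted p = 0.000496), and a second probe differed by 1.46 (adjusted p = 0.000763). Pdgfb, which recruits pericytes, and the netrin receptor Unc5b are both known from tip cells and were not called: they differed by 0.27 ± 0.11 (adjusted p = 0.243) and 0.47 ± 0.21 (adjusted p = 0.289), and their groups overlapped.

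Leaving the nonvascular arrays out of the error moved calls both ways. With all 13 arrays in the fit 509 probes were higher (1.24%) and 446 lower (1.08%), of which 378 and 357 were also called with 10 arrays. That left 110 higher and 59 lower probes called with 10 arrays only, and 131 and 89 with 13 only. Vegfa, the ligand that draws sprouts forward, was among the first: it stood at 0.21, 0.01, 0.20 and 0.18 in stalk and 0.97, 1.13 and 1.61 in tip (1.07 ± 0.12, adjusted p = 0.00171, against 0.09 with 13 arrays). Every tip array was above every stalk array, and a second probe differed by 1.30 (adjusted p = 0.00174), while another, dimmer one differed by 0.49 (adjusted p = 0.283). Kdr was at 4.90, 4.78, 5.10 and 4.87 in stalk and 4.00, 4.26 and 4.52 in tip (−0.66 ± 0.10, adjusted p = 0.00935, against 0.129).

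Other genes called in this way were carriers and regulators. Slc2a1, the glucose carrier of barrier vessels, was at 0.99, 1.05, 0.92 and 1.12 in stalk and 0.36, 0.49 and 0.52 in tip (−0.55 ± 0.05, adjusted p = 0.000655, against 0.445 with 13 arrays). Slc38a5, a glutamine carrier, was at 5.39, 5.37, 5.72 and 5.18 in stalk and 3.81, 4.12 and 4.39 in tip (−1.33 ± 0.12, adjusted p = 0.000538, against 0.14). The groups lay apart in each. Id1, a target of BMP signalling, was at 0.47, 0.48, 0.63 and 0.71 in stalk and −0.90, −0.61 and 0.07 in tip (−1.10 ± 0.17, adjusted p = 0.0106, against 0.231), and its second probe differed by −1.10 (adjusted p = 0.0123). In these genes it was the nonvascular arrays that were spread: Slc2a1 was at −2.63, −3.43 and −0.91 in nonvascular replicates 1 to 3, Slc38a5 at 1.37, 1.25 and 4.12, Vegfa at −2.35, −2.06 and −0.34 and Kdr at 2.92, 2.97 and 4.20.

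**Figure D3:**
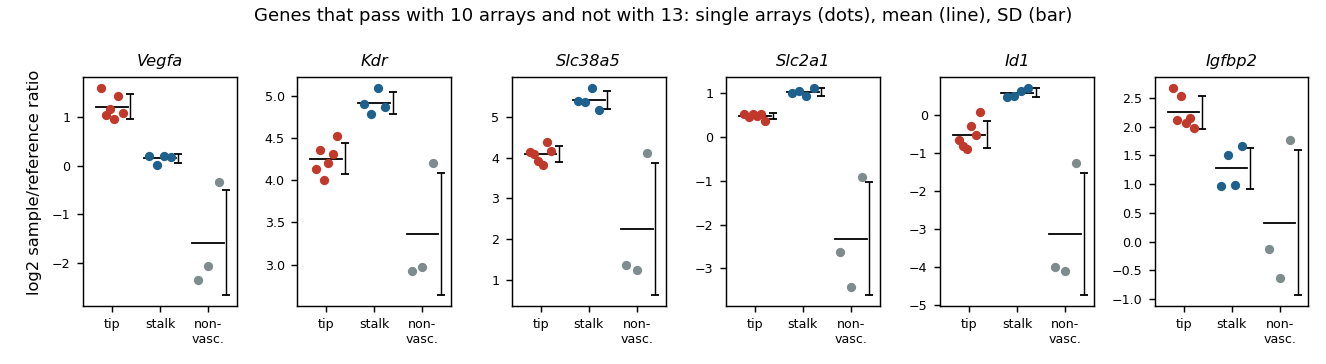
Log2 ratios of 6 genes called with the 10 tip and stalk arrays and not with all 13; each dot is an array of tip, stalk or nonvascular retina, the line is the group mean and the bar its SD. Tip and stalk do not overlap in any of the panels, while the nonvascular arrays range widely, in Slc38a5 from 1.25 to 4.12.

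In the Notch pathway the ligands split. Dll4, the tip ligand, was at 0.10, 0.35, 0.21 and 0.10 in stalk and 0.42, 0.60 and 0.72 in tip (0.41 ± 0.07, adjusted p = 0.0186), with no overlap, but it missed the threshold when stalk replicate 1 (adjusted p = 0.0656) or 3 (adjusted p = 0.0524) was left out. Jag1, a ligand that is known to oppose Dll4 in sprouting, was at 1.14, 1.43, 1.09 and 1.63 in stalk and 0.12, 0.26 and 0.39 in tip (−1.07 ± 0.11, adjusted p = 0.000801); a second probe near background differed by −0.08 (adjusted p = 0.629). Jag2 was lower by 0.76 (SE 0.13, adjusted p = 0.0147), from 2.03, 2.24, 1.97 and 1.98 in stalk to 1.03, 1.26 and 1.77 in tip. Of 22 measured genes of the pathway Dll4 alone was called higher and 4 lower, beside 1.6% and 1.75% of all genes. The lower ones were Jag1, Jag2, the mural receptor Notch3 and Heyl, a Notch target found in mural cells. Heyl was at 2.28, 2.08, 2.36 and 2.45 in stalk and 0.78, 1.09 and 1.36 in tip (−1.21 ± 0.13, adjusted p = 0.0015); a dim second probe differed by 0.01. The endothelial targets Hey1 and Hes1, chosen after their values were seen, differed by 0.03 ± 0.10 and 0.05 ± 0.06 and were not called (adjusted p = 0.917 and 0.684). Their 95% intervals were −0.19 to 0.25 and −0.07 to 0.17.

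Genes of the blood-retina barrier were lower in tip: limma called 14 of 29 lower and none higher, with a median of −0.402, beside 1.75% of all genes called lower. At an unadjusted p under 0.05 the list held 17 lower genes and 1 higher. The count was 11 without stalk replicate 1, stalk replicate 3 or tip replicate 2, 15 without tip replicate 6 and 10 with brightness as a covariate, beside 0.642% of all genes. Lsr, which builds the junctions where 3 cells meet, was at 3.47, 3.64, 3.94 and 3.54 in stalk and 0.37, 0.54 and 1.07 in tip, a fall of 3.03 (SE 0.14, 8.14-fold, adjusted p = 1.36e-05). Mfsd2a, which carries lysophosphatidylcholine with its fatty acid into neural tissue and holds transcytosis down, was at 3.34, 3.81, 3.85 and 3.35 in stalk and 0.36, 0.57 and 0.90 in tip (−2.97 ± 0.14, 7.83-fold, adjusted p = 1.36e-05). The nearest tip and stalk arrays were 2.40 apart for Lsr and 2.44 apart for Mfsd2a. Flvcr2, a choline carrier, was at 2.45, 2.53, 2.75 and 2.91 in stalk and 0.01, 0.40 and 0.82 in tip (−2.27 ± 0.16, adjusted p = 0.000119). Itm2a, a membrane protein of brain vessels, was lower by 1.63 (SE 0.18, adjusted p = 0.0014). The junction protein Cldn5, chosen after its values were seen, was at 4.78, 4.68, 5.07 and 4.95 in stalk and 3.32, 3.78 and 3.96 in tip (−1.16 ± 0.13, adjusted p = 0.00153).

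Of 28 carriers of amino acids and monocarboxylates 6 were lower in tip and 1 higher, beside 1.75% and 1.6% of all genes, with a median of −0.089 and 11 of the 28 above 0. Of the 6 lower ones 2, Slc3a2 and Slc7a5, are barrier genes counted above. Slc3a2, the heavy chain shared by several amino acid carriers, was at 2.07, 2.26, 2.07 and 2.05 in stalk and 1.22, 1.31 and 1.65 in tip (−0.75 ± 0.08, adjusted p = 0.00162), and Slc7a8, a light chain that pairs with it, was lower by 1.11 (SE 0.13, adjusted p = 0.00226). Slc39a8, an importer of zinc and manganese, was at 2.90, 2.95, 3.18 and 3.23 in stalk and 0.92, 1.44 and 1.70 in tip (−1.67 ± 0.14, adjusted p = 0.000325). Slc40a1, the iron exporter ferroportin, was at 2.16, 1.88, 2.49 and 1.95 in stalk and 0.58, 0.70 and 1.14 in tip (−1.36 ± 0.13, adjusted p = 0.000786). Stalk was above tip on every array for all 4 genes, though dim second probes of Slc3a2 and Slc39a8 differed by −0.10 and 0.00 and were not called (adjusted p = 0.552 and 0.979). Rbp7, a retinoid-binding protein of capillaries, had a larger difference than any of them, −2.43 ± 0.16 (adjusted p = 8.9e-05), from 4.15, 3.58, 3.51 and 4.09 in stalk to 1.12, 1.40 and 1.67 in tip. A dim second probe of Rbp7 differed by −0.11 (adjusted p = 0.226).

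**Figure D4:**
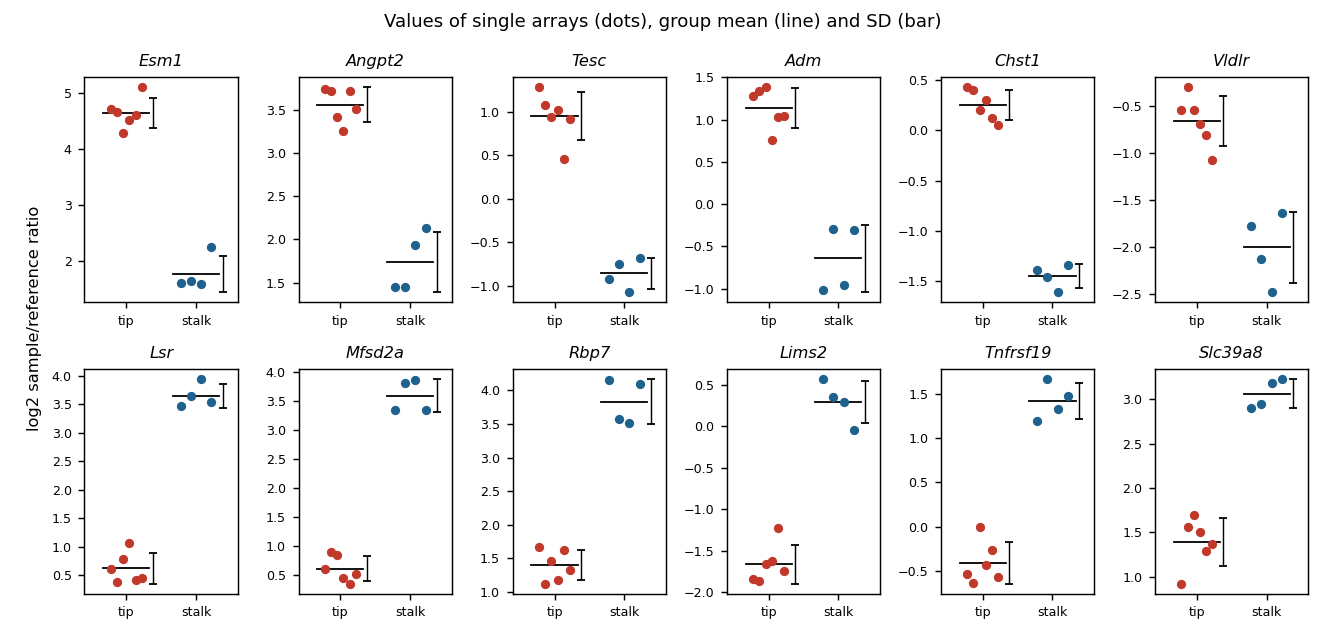
Log2 ratio of sample over reference (y axis) of 12 of the genes with the largest differences; each dot is a tip (n = 6) or stalk (n = 4) array, the line is the group mean and the bar its SD. Esm1 lies at 4.29 to 5.10 in tip and 1.59 to 2.25 in stalk, and Lsr at 0.37 to 1.07 and 3.47 to 3.94.

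Of 44 endothelial transcription factors 11 were lower in tip and 2 higher, beside 1.75% and 1.6% of all genes, and 31 were not called; the median was −0.143, with 16 of the 44 above 0. Without tip replicate 6 the counts were 14 and 5, beside 2.53% and 3.96%. Klf4, induced by flow, had the largest difference among them: it was at −1.01, −0.46, −0.76 and −0.26 in stalk and −3.45, −2.80 and −2.52 in tip, a fall of 2.20 (SE 0.19, adjusted p = 0.000377). Sox17, of arterial and barrier endothelium, was at 4.33, 4.17, 4.03 and 4.39 in stalk and 2.52, 2.72 and 3.19 in tip (−1.44 ± 0.13, adjusted p = 0.000387), although its other 2 probes, both dimmer, differed by −0.28 and −0.04 and were not called (adjusted p = 0.109 and 0.767). Foxf2, which acts in brain pericytes and endothelium, was at 2.51, 2.38, 2.83 and 2.79 in stalk and 1.01, 1.29 and 1.52 in tip (−1.34 ± 0.12, adjusted p = 0.000377). The groups of all 3 lay apart. Klf2, the relative of Klf4 that flow also induces, was chosen after its values were seen: its brightest probe differed by 0.06 ± 0.08 and was not called (adjusted p = 0.742), whereas its other probe was lower by 1.99 (SE 0.20, adjusted p = 0.000786), so the probes of Klf2 disagreed. Gja4, an arterial gap junction protein, was at 3.62, 3.81, 3.78 and 3.90 in stalk and 1.29, 1.96 and 2.30 in tip (−1.92 ± 0.20, adjusted p = 0.00111).

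Of 38 pan-endothelial genes limma called 8 lower and none higher (18 and 1 at an unadjusted p under 0.05), with a median of −0.304, beside 1.75% of all genes called lower; without tip replicate 6 the lower count was 12, beside 2.53%. Calcrl, Sox17 and Ptprb had the smallest p of the 8. The adhesion molecules that often serve to mark endothelial cells were not called: Cdh5, VE-cadherin, was at 4.14, 4.00, 4.33 and 4.37 in stalk and 3.58, 4.12 and 4.58 in tip (−0.13 ± 0.16, 95% interval −0.49 to 0.23, adjusted p = 0.733), and its groups overlapped. A second, dimmer probe of Cdh5 differed the other way, by 0.31, and was not called either (adjusted p = 0.232). The Pecam1 probe differed by 0.15 ± 0.07 (adjusted p = 0.324) and read −0.13 to 0.23 over both groups, near its −0.26 to −0.09 in nonvascular retina. In bulk samples fewer cells of a type and less RNA per cell cannot be told apart.

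Pericyte and smooth muscle genes were lower in tip: limma called 11 of 23 lower and none higher (14 and 0 at an unadjusted p under 0.05), with a median of −0.713, beside 1.75% of all genes called lower. The count was 6 without stalk replicate 3 (1.09% of all genes) and 4 with brightness as a covariate (0.642%) or with median centring (0.72%), and the median was −0.528 in the tip arrays as dim as stalk. Myl9, a light chain of smooth muscle myosin, was at 0.17, 0.57, 0.68 and 0.41 in stalk and −1.49, −1.11 and −0.87 in tip (−1.58 ± 0.14, adjusted p = 0.000387). Foxc1, a forkhead factor of mural cells, was at 0.49, 0.18, 0.88 and 0.66 in stalk and −0.72, −0.59 and −0.44 in tip (−1.15 ± 0.12, adjusted p = 0.000885). Neither overlapped between groups. Among the defining pericyte markers Higd1b and Vtn, chosen after their values were seen, differed by −1.10 ± 0.15 and −1.17 ± 0.18 (adjusted p = 0.00506 and 0.0107). Des, which encodes the filament protein desmin, differed by 0.00 ± 0.06 (adjusted p = 0.985). These lower levels stood beside those of the barrier, endothelial and Notch genes above, and the part of mural cells in them was not tested.

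Glycolytic enzymes were higher in tip: 8 of 22 were called higher, and 1, the carrier Slc2a1, lower, with a median of 0.348, beside 1.6% and 1.75% of all genes. The count of higher genes was 3 without stalk replicate 3 (0.684% of all genes), 5 without stalk replicate 1 or 2 or tip replicate 2 or 3 (0.678% to 1.06%), 1 with brightness as a covariate (0.28%) and 0 with median centring (0.137%), where the list's median was 0.16. Tpi1, triosephosphate isomerase, was at −1.63, −1.36, −1.78 and −1.50 in stalk and −0.86, −0.68 and −0.51 in tip (0.89 ± 0.09, adjusted p = 0.000862). Pgk1, phosphoglycerate kinase, was at −2.90, −2.84, −2.87 and −2.73 in stalk and −2.33, −2.15 and −1.81 in tip (0.73 ± 0.10, adjusted p = 0.00565), and a second probe differed by 0.67 (adjusted p = 0.00919). Both genes lay apart between groups on every array. Pkm, pyruvate kinase, had the largest difference of the list, 1.28 ± 0.21 (adjusted p = 0.0136), from −1.77, −1.51, −1.91 and −1.52 in stalk to −1.18, −0.31 and 0.08 in tip, with tip replicate 6 the lowest. Pfkfb3, which makes the activator of phosphofructokinase and is known to drive glycolysis in sprouts, was chosen after its values were seen: it differed by 0.09 ± 0.07 (adjusted p = 0.601).

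Of 30 other genes of the hypoxia pathway 4 were higher (Adm, Vegfa, P4ha1 and Vldlr) and 1, Angptl4, lower, with a median of 0.148, beside the same shares. P4ha1, a hydroxylase that stabilises collagen, was at −2.05, −1.68, −1.99 and −1.74 in stalk and −1.24, −0.88 and −0.70 in tip (0.93 ± 0.11, adjusted p = 0.00226), while a second, dimmer probe differed by 0.26 (adjusted p = 0.381). Vldlr, a lipoprotein receptor, was at −1.77, −2.13, −2.47 and −1.64 in stalk and −1.08, −0.62 and −0.31 in tip (1.34 ± 0.18, adjusted p = 0.00472). Angptl4, an inhibitor of lipoprotein lipase that hypoxia also induces in many cells, went the other way, at 1.36, 1.03, 1.57 and 1.13 in stalk and −0.10, 0.11 and 0.38 in tip (−1.13 ± 0.12, adjusted p = 0.00114).

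The 250 bases before the RefSeq starts of the members of both lists (GRCm38.p6) were searched for ACGTG, the core letters of the element bound by hypoxia-inducible factors, on both strands (CACGT on the strand shown; the 5 letters also lie within CACGTG, the E-box of other factors). The windows of 3 called genes are shown 5′ to 3′ on the gene's strand, with matches in capitals: Pgk1 at chrX:106186850-106187099 (+), P4ha1 at chr10:59323046-59323295 (+) and Tpi1 at chr6:124814159-124814408 (−), the last with no match.
Pgk1: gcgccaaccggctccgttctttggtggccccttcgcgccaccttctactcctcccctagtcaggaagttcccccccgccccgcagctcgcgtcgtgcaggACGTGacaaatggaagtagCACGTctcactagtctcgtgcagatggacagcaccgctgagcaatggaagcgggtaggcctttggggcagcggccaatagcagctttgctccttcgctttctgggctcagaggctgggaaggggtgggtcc
P4ha1: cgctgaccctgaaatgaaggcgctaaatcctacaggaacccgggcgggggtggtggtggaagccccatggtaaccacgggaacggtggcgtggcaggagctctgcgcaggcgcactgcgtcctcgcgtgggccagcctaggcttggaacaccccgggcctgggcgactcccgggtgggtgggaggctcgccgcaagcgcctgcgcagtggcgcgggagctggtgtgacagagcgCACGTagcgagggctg
Tpi1: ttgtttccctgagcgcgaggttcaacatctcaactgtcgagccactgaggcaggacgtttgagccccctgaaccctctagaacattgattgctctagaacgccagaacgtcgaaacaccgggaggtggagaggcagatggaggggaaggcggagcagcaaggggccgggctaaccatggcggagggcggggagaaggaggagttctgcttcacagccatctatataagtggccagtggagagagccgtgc
The letters were present in 16.6% of all 32851 windows of this length. By gene they were found in 21.6% of 13337 tested genes with an entry, in 25.8% of 221 genes higher in tip and in 18.8% of 218 lower ones. Among glycolytic enzymes 3 of the 8 higher members and 7 of the 13 others had them, and among the other hypoxia genes 2 of the 4 higher members and 11 of the 18 others. A match describes letters only.

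Matrix genes were called in both directions, beside 1.6% of all genes higher and 1.75% lower. Of 30 proteases and inhibitors 3 were higher (Plaur, Mmp14 and Reck) and 4 lower (Ctsh, Adam15, Timp1 and Timp4), of 20 matricellular proteins 2 were higher and 3 lower, and of 34 proteoglycans and genes of glycan sulfation 3 were higher (Chst1, Esm1 and Ext1) and 1, Hs3st1, lower. Mmp14, Reck, Timp1, Timp4 and Hs3st1 are named after their values were seen. Leaving out 1 array gave 0 to 5 higher and 2 to 4 lower proteases and inhibitors. Of 19 basement membrane components 3 were higher, Nid2, Fn1 and Lamc1, and the median was 0.132. Their calls were weak: the list held none without stalk replicate 1 or 2 or tip replicate 1 or 3, where the adjusted p of the 3 genes was 0.0505 to 0.122. It held 1 without stalk replicate 3 or 4 or tip replicate 2 or 5, and 5 without tip replicate 6. The other probes of Fn1, well above background on every array, differed by 0.084, −0.005 and 0.007 and were not called (adjusted p = 0.74, 0.99 and 0.962). Ext1, a polymerase of heparan sulfate, was at −0.34, −0.25, −0.29 and −0.29 in stalk and 0.17, 0.60 and 0.76 in tip (0.82 ± 0.11, adjusted p = 0.0055), with the groups apart. Hs3st1, a heparan sulfate sulfotransferase, was lower by 0.68 (SE 0.14, adjusted p = 0.0343), and lost the call without stalk replicate 1 or 2 or any 1 of tip replicates 1 to 5. Prss23, a serine protease of endothelium, was at 0.49, 0.58, 0.43 and 0.65 in stalk and 1.24, 1.44 and 1.96 in tip (0.97 ± 0.12, adjusted p = 0.00321); a dim second probe differed by 0.00. Ctsh, the lysosomal protease cathepsin H, was lower, at 2.66, 2.55, 2.76 and 2.78 in stalk and 1.58, 1.75 and 2.24 in tip (−0.88 ± 0.11, adjusted p = 0.00336).

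Igf1, an insulin-like growth factor, was at −0.35, −0.31, −0.94 and −0.31 in stalk and 0.13, 0.27 and 0.44 in tip (0.74 ± 0.12, adjusted p = 0.0154), and a second probe differed by 1.12 (adjusted p = 0.0305). It was 1 of 3 members of the IGF list called higher among 12, with none lower, beside 1.6% and 1.75% of all genes. The list's median was −0.074, with 8 of the 12 below 0. Igfbp4, whose groups overlapped, lost its call without any 1 of 8 arrays, and Igfbp2 without any 1 of 3. None was called higher with brightness as a covariate, the replicate block or median centring, beside 0.137% to 0.934% of all genes. Median centring gave 1 lower, beside 0.72%. Ier3, an early response gene, was at −2.68, −2.54, −2.77 and −2.63 in stalk and −1.93, −1.38 and −0.93 in tip (1.28 ± 0.17, adjusted p = 0.00506). The guidance ligand Sema3f was higher by 0.72 (SE 0.10, adjusted p = 0.00718), and a second probe of it by 0.49 (adjusted p = 0.00583). Sema3f was the only call among 34 axon guidance genes, beside 3.35% of all genes called in either direction. Of 34 filopodia and actin genes 4 were higher and 3 lower, beside 1.6% and 1.75% of all genes. Marcksl1, an actin-binding protein at the membrane, was higher by 0.47 (SE 0.06, adjusted p = 0.00374), with 0.52 on a second probe (adjusted p = 0.0783). Fmnl3, a formin of endothelial filopodia, was at 0.41, 0.63, 0.63 and 0.49 in stalk and −0.26, −0.11 and −0.01 in tip (−0.65 ± 0.07, adjusted p = 0.00101).

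Several of the largest falls belonged to genes outside these pathways. Lims2, an adaptor at integrin contacts, was at 0.57, 0.36, 0.30 and −0.04 in stalk and −1.87, −1.71 and −1.22 in tip (−1.96 ± 0.14, adjusted p = 0.00012). Ceacam2, an adhesion molecule, was at 2.23, 2.17, 2.20 and 2.51 in stalk and −0.04, 0.23 and 0.70 in tip (−1.96 ± 0.14, adjusted p = 0.000119), while a dim second probe differed by 0.05 (adjusted p = 0.858). Tnfrsf19, a receptor of the tumour necrosis factor family that marks brain vessels, was at 1.19, 1.67, 1.34 and 1.48 in stalk and −0.64, −0.49 and 0.00 in tip (−1.83 ± 0.13, adjusted p = 0.00012). The groups lay far apart in all 3. Rgs2, which turns down G protein signals, was at −0.34, 0.31, 0.02 and 0.53 in stalk and −2.56, −1.52 and −1.10 in tip (−1.74 ± 0.27, adjusted p = 0.00992); its lowest value, in tip replicate 5, was well below the other tip arrays, and a dim second probe differed by −0.12 (adjusted p = 0.554).

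Over all genes 1.6% were called higher and 1.75% lower, and every count of this paragraph stands beside these shares. Among 22 microglia and macrophage genes, 23 amacrine, horizontal and bipolar cell genes, 12 erythroid genes, 9 caveolar and fenestral genes and 36 ribosomal protein genes limma called none in either direction. At such shares the absence of calls in lists of this size says little. At an unadjusted p under 0.05 these lists held 1, 2, 0, 1 and 5 higher genes and 1, 1, 1, 2 and 2 lower ones. Ganglion cell genes had a median of 0.221 with 1 of 20 higher, Nrn1, by 0.53 (SE 0.08, adjusted p = 0.0112). Of 18 Mueller glia genes 1 was higher and 2 lower (median 0.054), and of 16 astrocyte genes 2 were lower, Glul and S100b, and none higher by limma (3 lower and 3 higher at an unadjusted p under 0.05). Glul, the glutamine synthetase of both glia, was at 4.93, 4.77, 5.09 and 4.77 in stalk and 3.72, 3.80 and 4.38 in tip (−0.99 ± 0.13, adjusted p = 0.00408), whereas Sox2, a transcription factor of Mueller glia, was higher by 0.54 (SE 0.10, adjusted p = 0.0222) and Dapl1, the other Mueller gene called, lower by 0.60 (adjusted p = 0.0429). Of these Glul kept its call whichever array was left out; Sox2 lost it without stalk replicate 2 or 3 (adjusted p = 0.057 and 0.0732), Dapl1 without any 1 of 8 arrays, all but stalk replicate 4 and tip replicate 6 (0.0606 to 0.122), and S100b without any 1 of 7, all but tip replicates 1, 5 and 6 (0.0542 to 0.109). Of 33 cell cycle genes Ccnd2 alone was called, higher by 1.03 (SE 0.20, adjusted p = 0.0307), and it lost the call without any 1 of stalk replicates 1, 3 and 4 or tip replicates 1 to 4 (adjusted p 0.0572 to 0.0842); its other 2 probes were higher by 1.22 and 1.05 (adjusted p = 0.0228 and 0.0307). Of 33 genes for protein folding and secretion 2 were higher and none lower, but the median was 0.241, with 28 of the 33 above 0. Pdia6, 1 of the 2, lost its call without any 1 of 8 arrays (adjusted p 0.0607 to 0.115). With brightness as a covariate, median centring or red alone the list held no call, beside 0.137% to 0.779% of all genes higher. Its median was then 0.157 to 0.183.

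**Figure D5:**
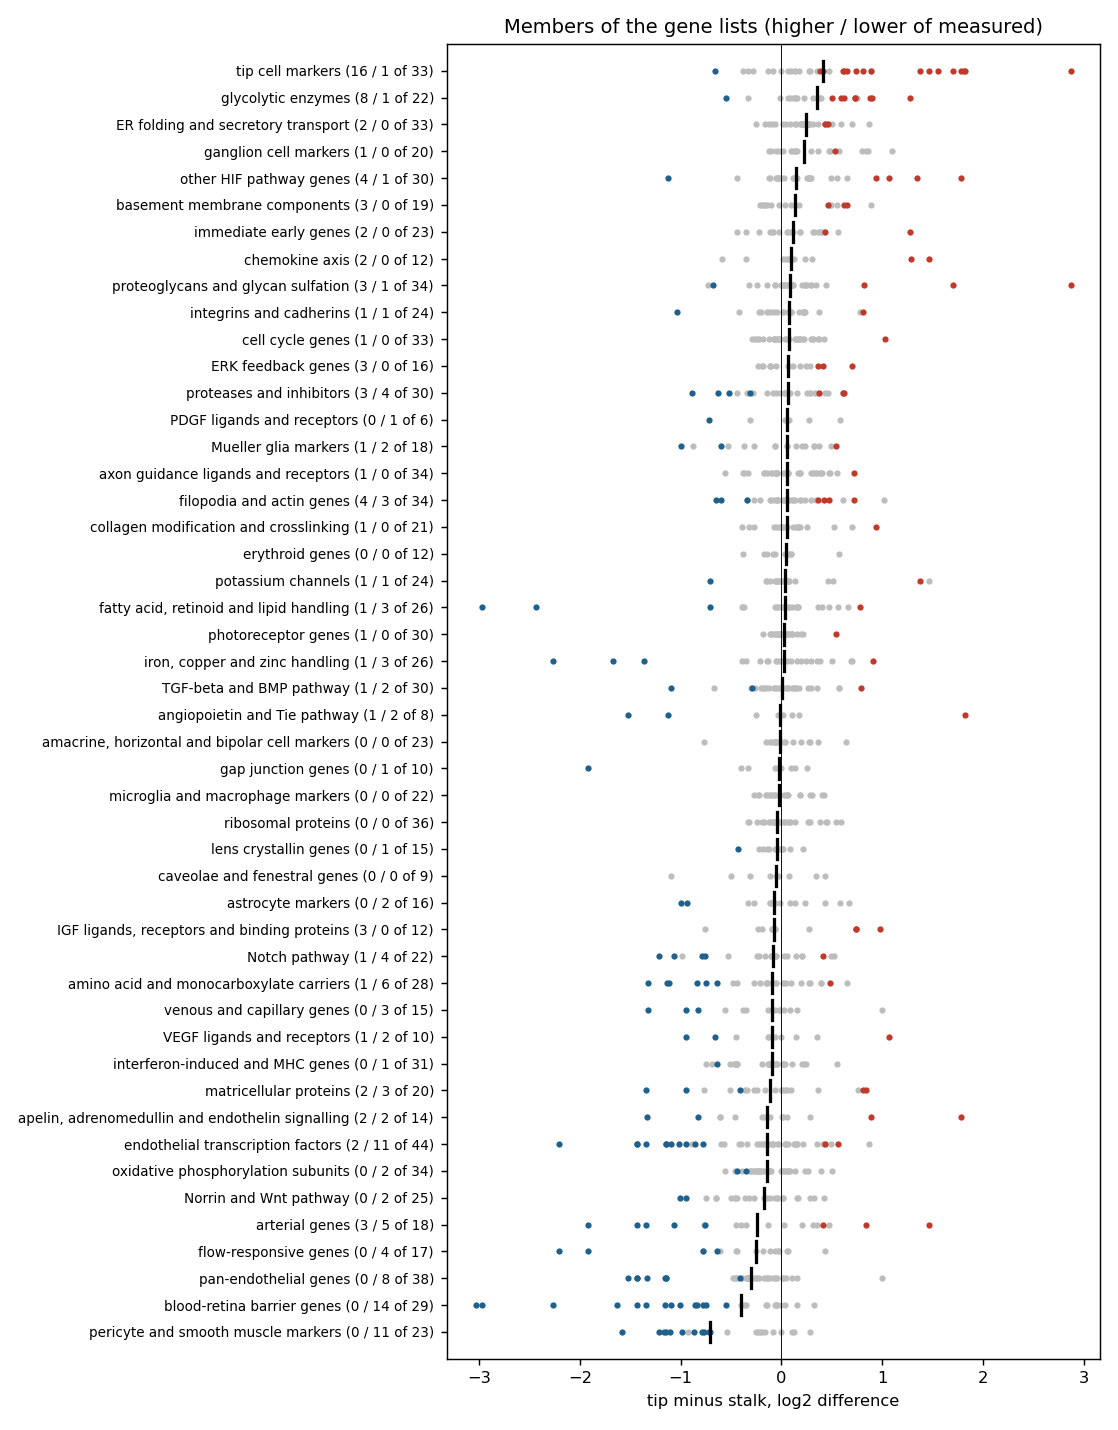
Difference between tip and stalk (x axis, log2) of every measured member of the gene lists; each dot is a gene, red where called higher, blue where called lower and grey where not called, and the black dash is the list's median. The barrier list (14 of 29) and the pericyte and smooth muscle list (11 of 23) hold many lower genes, and the tip cell markers (16 of 33) many higher ones. The lists were written with earlier results of these data known.

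Of the 105 genes taken by the naming rule 100 were called, and 70 of those stayed called whichever array was left out. Under every alternative tried 10 did: Calcrl, Ceacam2, Chst1, Esm1, Flvcr2, Gja4, Lsr, Mfsd2a, Slc39a8 and Tnfrsf19. Of the 564 called genes 217 had more than 1 probe, and another probe was called the same way in 32 of them and the other way in 0. Where another probe lay within 1 log2 unit of the chosen probe's mean intensity, in 57 genes, it had the same sign in 49 and was called the same way in 21.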

How the data were processed

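Per the labels' protocols, an Arcturus PicoPure kit gave the RNA, a Bioanalyzer its quality, and Agilent's kit for linear amplification of little RNA the labelled target. Agilent Feature Extraction 8.5.1.1 read the scans, per the file headers and the submitters' processing notes. Per the file headers, the deposited scanner files give each spot's mean intensity and local background intensity in red (sample) and green (reference), flags for outliers and for signal well above background, and a log10 ratio of the background-subtracted, dye-normalized signals. The authors' value table holds a linear ratio per probe that equalled the antilog of that deposited log10 ratio within 0.01 (log2) for at least 99.97% of probes on each array; its direction, red over green, follows from that match. Array medians of this ratio were 1.06 to 1.15.

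From the intensities, log2 red over green ratios were computed in limma 3.58.1 (R 4.3.3): normexp background correction with offset 50, loess within each array, control spots at weight 0 and left out, outlier spots set to missing and repeated spots averaged, which left 41174 probes. Tip and stalk means were fitted to 10 arrays with lmFit and eBayes. The number of arrays limits the precision. Names came from a RefSeq gene table (GRCm38.p6): 22072 probes matched by their own accession, 135 by another and 1199 by their description, while 17761 had none and 7 several. A gene was read from its probe of highest mean intensity, and names in the files can be old. The fit, without the steps before it, was checked on simulated log2 ratios with independent normal noise. Of 200 probes changed by 0.5, 1 or 2 log2 units, 58%, 89.5% and 99% were called in the right direction.

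Genes named in the text are 14 fixed ones, the 12 largest calls per direction with a signal well above background throughout the higher group, up to 3 calls of smallest p per gene list, and the 6 largest per direction called with 10 arrays and not with 13; the text names part of them and marks others as chosen once their values were known. The members, lists and rules were chosen with earlier results of these data known. Lists were described by counts and medians and not tested. Alternatives were other background and scaling choices, the deposited ratio, red alone, a filter on dim probes, the mean of a gene's probes, brightness as a covariate, all 13 arrays, a replicate block, leaving out each array and, chosen after seeing the data, only the tip arrays as dim as stalk. Each slide held 1 array, so no slide block could be fitted.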

Additional observations from a re-analysis of the deposited data

Results flagged for a closer look

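In 210 groups of values (105 genes in tip and in stalk), 12 single arrays lay far from the rest of their group by Dixon's test at the 95% level. Chance marks about 1 in 20 groups, so a number of this size carries no pattern. Their log2 ratios follow, each with the range of the other arrays of its group. In stalk, Esm1 was at 2.254 in replicate 4 (others 1.592 to 1.652), Id2 at 1.032 in replicate 4 (others 0.192 to 0.333), Vegfa at 0.005 in replicate 2 (others 0.184 to 0.205), Slc3a2 at 2.257 in replicate 2 (others 2.054 to 2.072), Igf1 at −0.945 in replicate 3 (others −0.352 to −0.309) and S100b at 5.984 in replicate 1 (others 5.661 to 5.712). In tip, Flt1 was at 1.913 in replicate 6 (others 2.187 to 2.343), Slc40a1 at 1.145 in replicate 6 (others 0.578 to 0.747), Klf4 at −3.446 in replicate 1 (others −2.817 to −2.523), Ctsh at 2.239 in replicate 1 (others 1.583 to 1.771), Lims2 at −1.224 in replicate 5 (others −1.869 to −1.627) and Jag2 at 1.774 in replicate 4 (others 1.034 to 1.308). Of the 12, tip replicates 1 and 6 had 2 each. In Slc40a1 the value of tip replicate 6 lay toward stalk, and in Flt1 away from it.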

How the results depend on the processing

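No called gene named by the rule changed direction under any alternative. Against 488 higher and 416 lower probes, the scanner software's log ratio gave 238 higher, the deposited ratio 225, the red channel alone 208, median centring 38 and 161 lower, and brightness as a covariate 70 and 137. Without background subtraction, with quantile scaling, with the filter on dim probes and with 13 arrays both counts stayed within 1.5 times. Leaving out 1 array gave 179 to 1212 higher and 247 to 604 lower probes; the extremes were stalk replicate 3 and tip replicate 6 for the higher, stalk replicate 1 and tip replicate 6 for the lower. Tip replicates 5 and 6 alone against stalk, an alternative chosen after seeing the data, gave 4 and 18. Of the 100 called genes that the rule names, 99 kept the call without background subtraction, 93 with quantile scaling, 80 with 13 arrays, 77 with the scanner log ratio, 75 with red alone, 54 with brightness, 49 with median centring and 12 with tip replicates 5 and 6 alone, which leaves fewer arrays. The other causes were not tested.

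The labels do not say whether replicate numbers pair the samples. Deviations of same-numbered tip and stalk arrays correlated at −0.142 to 0.021, and those of differently numbered arrays at −0.146 to 0.144. With so few arrays these values cannot settle whether samples were paired. With the replicate block 298 probes were higher and 225 lower, and 64 of the 100 genes kept the call.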

Other observations

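The genes here were chosen after their values were seen, and serve as descriptions. Among genes lower in tip were secreted and matrix proteins outside the lists. Htra1, a secreted serine protease, was at −1.58, −1.41, −1.51 and −1.83 in stalk and −3.13, −2.95 and −2.73 in tip (−1.38 ± 0.10, adjusted p = 0.000119). Its relative Htra3 was lower by 1.43 (SE 0.17, adjusted p = 0.00264; a dimmer probe differed by 0.03), and Tgfbi, a matrix protein induced by TGF-beta, by 1.16 (SE 0.11, adjusted p = 0.000538). Dhh, the hedgehog ligand of endothelium and Schwann cells, was at 1.57, 1.75, 1.27 and 1.43 in stalk and −0.18, 0.12 and 0.35 in tip (−1.41 ± 0.12, adjusted p = 0.000377). Tip and stalk arrays did not overlap in any of the 4 genes.

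Genes with other roles were higher in tip. Apba2, a neuronal adaptor of the amyloid precursor protein, was at 1.61, 1.17, 0.90 and 1.36 in stalk and 2.06, 2.47 and 2.70 in tip (1.18 ± 0.16, adjusted p = 0.00481). Cdkn2b, an inhibitor of the cell cycle, was at −2.50, −1.82, −2.13 and −2.45 in stalk and −1.45, −1.11 and −0.87 in tip (1.12 ± 0.15, adjusted p = 0.00431). Lcp2 and Irf8, both known from blood cells, were higher by 1.11 and 1.02 (SE 0.14 and 0.15, adjusted p = 0.00321 and 0.00781). A dimmer probe of Irf8 differed by 0.04. None of 22 microglia and macrophage genes was called by limma, beside 3.35% of all genes, with 1 higher and 1 lower at an unadjusted p under 0.05.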
